A study of Mus musculus with 21 samples.

Results

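The POU class III genes Pou3f1, Pou3f2, Pou3f3 and Pou3f4 were taken by gene symbol from the deposited tables of 3 lincRNA knockout mouse strains, and all 4 were listed once in each table (4 of 40770 genes in the linc-Brn1b table and 4 of 42760 in each of the other tables). Of the 21 RNA-seq libraries, 13 came from the linc-Brn1b strain. Telencephalon was taken at E13.5 from 2 wild-type and 2 linc-Brn1b-/- embryos and at E15.5 from 2 wild-type and 3 linc-Brn1b-/- embryos as the labels list them (the study's text gives 2 of the latter), and whole brain was taken at P7 from 2 wild-type and 2 linc-Brn1b-/- animals. The other libraries were E18.5 whole brain of 2 wild-type and 2 Peril-/- embryos (named after Sox2 in the labels) and E14.5 lung of 2 wild-type and 2 Fendrr-/- embryos (named after Foxf1a in the labels). In every knockout the lincRNA locus was replaced by a lacZ reporter followed by a neomycin cassette under a human ubiquitin promoter, so the inserted cassette and the lost locus cannot be told apart. The lines came from hybrid ES cells of C57BL/6N and a 129 substrain, were crossed once with C57BL/6J, and wild-type littermates served as controls. Each group is 1 pooled value in FPKM (fragments scaled for transcript length and library size). No spread between animals could therefore be computed and no difference below was tested, and the read depth behind each value is unknown.

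POU proteins bind DNA through a bipartite POU domain, made of a POU-specific domain and a POU homeodomain joined by a linker, and class III members recognise octamer-like sequences. Pou3f3 (Brn1) and Pou3f2 (Brn2) are known to act in overlapping ways in cortical progenitors and in the production and migration of upper-layer neurons. Pou3f1 (Oct6) is known for the onset of myelination in Schwann cells and is also expressed in cortical neurons, and Pou3f4 (Brn4), an X-linked gene, acts in the inner ear and in the developing ventral telencephalon. All 4 genes consist of a single exon, and the linc-Brn1b locus lies downstream of Pou3f3.

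In mm9 the table placed Pou3f3 on chromosome 1 at chr1:42753991-42757054 and linc-Brn1b at chr1:42763906-42770299, leaving 6851 bp between them. Pou3f1 was at chr4:124334889-124337899 and Pou3f2 on the minus strand of the same chromosome at chr4:22413941-22415278. Pou3f4 shared the locus chrX:107996259-108013527 with linc-Pou3f4-AS, within which GENCODE places the single exon of Pou3f4 at chrX:108009729-108010910. The deposited Pou3f2 model covered the coding sequence alone and that of Pou3f3 began at the start codon, so FPKM of different members rest on unlike parts of their transcripts.

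The coding sequences are alike, and the stretch where the 4 genes resemble each other most lies in the part that encodes the POU-specific domain. It is shown, 5′ to 3′ on the coding strand, because it bears on whether reads of one paralog could be counted for another. Capitals mark bases that differ from Pou3f3. The stretches are chr1:42755026-42755115 for Pou3f3, chr4:124335787-124335876 for Pou3f1, chr4:22414295-22414384 for Pou3f2 and chrX:108010464-108010553 for Pou3f4, all in NCBIM37 (mm9).
Pou3f3: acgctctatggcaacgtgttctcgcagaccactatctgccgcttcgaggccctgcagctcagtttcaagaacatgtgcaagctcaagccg
Pou3f1: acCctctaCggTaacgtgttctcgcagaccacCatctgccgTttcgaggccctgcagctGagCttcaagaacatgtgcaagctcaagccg
Pou3f2: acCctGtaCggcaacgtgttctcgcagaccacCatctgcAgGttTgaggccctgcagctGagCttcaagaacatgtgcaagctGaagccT
Pou3f4: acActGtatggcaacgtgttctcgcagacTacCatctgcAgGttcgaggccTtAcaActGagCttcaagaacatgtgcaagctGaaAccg
Of its 90 bases, 73 were the same in all 4 genes and 15 of the 17 others were at the third position of a codon. Pou3f1 differed from Pou3f3 at 7 bases, Pou3f2 at 11 and Pou3f4 at 13. Over whole GENCODE transcripts, no window of 100 bases, about the length of a read, matched another member with 2 or fewer mismatches on either strand. The closest such pair of windows, in Pou3f1 and Pou3f3, had 6 mismatches. This compares annotated transcripts with each other, and how the deposited alignments assigned reads between the paralogs was not tested.

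The 250 bases before the RefSeq start site were available for 3 of the 4 genes and are shown because the paralogs are compared below in embryos that keep these sequences. The RefSeq sequences (GRCm38.p6) were each found once in mm9, at chr1:42752363-42752612 on the plus strand for Pou3f3, at chr4:22415514-22415763 on the minus strand for Pou3f2 and at chrX:108009468-108009717 on the plus strand for Pou3f4. Capitals mark CCAAT or its reverse complement ATTGG.
Pou3f3: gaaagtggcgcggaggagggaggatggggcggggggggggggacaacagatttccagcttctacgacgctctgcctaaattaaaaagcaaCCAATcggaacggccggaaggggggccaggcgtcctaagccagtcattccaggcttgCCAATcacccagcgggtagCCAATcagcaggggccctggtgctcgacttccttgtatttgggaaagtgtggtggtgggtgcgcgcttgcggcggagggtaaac
Pou3f2: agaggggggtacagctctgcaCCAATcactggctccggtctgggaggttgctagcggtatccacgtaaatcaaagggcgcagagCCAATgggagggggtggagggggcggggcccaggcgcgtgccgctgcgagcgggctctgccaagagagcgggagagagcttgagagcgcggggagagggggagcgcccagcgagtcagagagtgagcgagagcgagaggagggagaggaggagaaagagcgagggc
Pou3f4: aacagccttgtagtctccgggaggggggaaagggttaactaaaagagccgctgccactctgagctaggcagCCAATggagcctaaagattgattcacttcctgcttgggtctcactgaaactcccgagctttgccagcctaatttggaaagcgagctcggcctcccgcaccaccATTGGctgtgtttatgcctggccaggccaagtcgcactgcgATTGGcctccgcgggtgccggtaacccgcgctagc
CCAAT occurred 3 times in the Pou3f3 window, 2 times in the Pou3f2 window and 3 times in the Pou3f4 window, counting both strands. Of 32851 RefSeq windows of the same length, 33.8% held CCAAT at least once, 10.1% at least 2 times and 2.79% at least 3 times. None of these 3 windows held the octamer ATGCAAAT (1.60% of all windows), CATNNTAAT (2.12%) or TATAAA (12.4%) on either strand, which says only that these letters are not there. GC content was 60.8% for Pou3f3, 66.8% for Pou3f2 and 58.0% for Pou3f4. The Pou3f3 start site lay 1378 bp before its coding start, and its window began 692 bp past the end of 2610017I09Rik, the neighbouring transcript on the other side from linc-Brn1b.

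Checks of the groups touched these values in several ways. The targeted transcript linc-Brn1b was at 1.60, 2.498 and 0.799 FPKM in wild-type E13.5, E15.5 and P7 samples and was listed at 0 in all 3 linc-Brn1b-/- groups. The entry for Fendrr, linc-Cox4nb-4, was at 38.4 FPKM in wild-type lung against 0.0450 in Fendrr-/- lung. The entry that overlaps Peril, linc-Atp11b-4, extends past that locus and was at 0.0109 FPKM in wild-type brain and 4.65 FPKM in the brain labelled Peril knockout, so it does not check that label. All 3 telencephalon markers (Emx1, Emx2 and Lhx2) were above 1 FPKM in every brain group and none was in lung. At E13.5 the wild-type pool held 8.23 to 16.5 FPKM of the 4 Y-linked genes measured and the knockout pool no more than 0.00723. At E15.5 and P7 the wild-type pools held no more than 0.0122 FPKM and the knockout pools 2.07 to 11.7, and these genes were likewise above 1 FPKM in only one genotype in the other strains. Sex and genotype of the pools therefore cannot be told apart. The same genes were above 1 FPKM at E13.5 but not at E15.5 in wild type, and at E15.5 but not at E13.5 in knockout, so sex and age cannot be told apart over that interval either, and the change runs in opposite directions in the 2 genotypes.

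**Figure D1:**
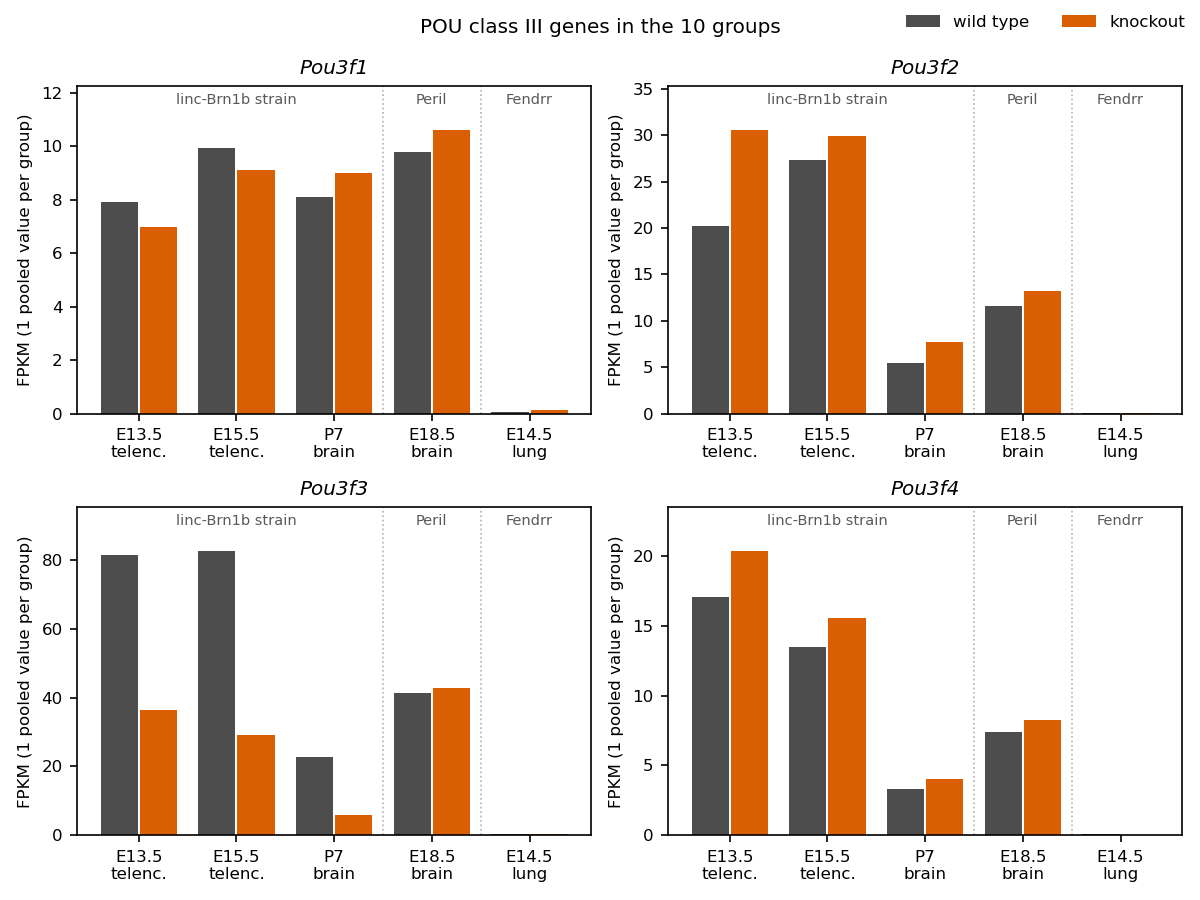
FPKM of the 4 genes in the 10 groups (1 pooled value per group, bars from 0, dark for wild type and orange for knockout, dotted lines separating strains). Pou3f3 was the only member with a large genotype difference, from 81.5 to 36.5 FPKM at E13.5, and all 4 genes were under 1 FPKM in lung.

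In wild-type telencephalon Pou3f3 was the most abundant member by FPKM at both embryonic ages, and the other 3 followed at a distance. At E13.5 Pou3f3 was at 81.5 FPKM, Pou3f2 at 20.2, Pou3f4 at 17.1 and Pou3f1 at 7.90. Only 2.15% of all genes in the table had a higher FPKM than Pou3f3, against 20.0% for Pou3f1. At E15.5 the order was unchanged, with Pou3f3 at 82.5 FPKM, Pou3f2 at 27.4, Pou3f4 at 13.497 and Pou3f1 at 9.93. Pou3f3 thus exceeded Pou3f2 4.03-fold at E13.5 and 3.02-fold at E15.5.

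In wild-type P7 whole brain Pou3f3 again led at 22.7 FPKM, followed by Pou3f1 at 8.09, Pou3f2 at 5.46 and Pou3f4 at 3.26. Pou3f1, the lowest member in E13.5 and E15.5 telencephalon, was now next to Pou3f3 while its own level differed little from that at E15.5. In the wild-type E18.5 brain of the Peril strain, a table normalized separately, Pou3f3 was at 41.4 FPKM, Pou3f2 at 11.5, Pou3f1 at 9.80 and Pou3f4 at 7.40. Pou3f3 therefore led in all 4 wild-type brain groups, taking 64.3%, 61.9% and 57.4% of the summed FPKM of the 4 genes at E13.5, E15.5 and P7 and 59.0% at E18.5. Neighbours in these orders were not tested, since no group has a spread.

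From E13.5 to E15.5 each of the 4 genes differed by less than 1.5-fold in either genotype, as did most genes. A gene was called when its FPKM differed at least 1.5-fold, measured as a log2 ratio after adding 0.1 FPKM, with at least 1 FPKM in either group. In wild type 0 of the 4 genes were called, where 12.6% of all genes were higher and 10.9% lower by this rule at E15.5. Pou3f2 was 1.35-fold and Pou3f1 1.26-fold higher at E15.5, Pou3f3 was at 101.3% of its E13.5 level and Pou3f4 at 79.1%. Pou3f2 and Pou3f4 thus ran in opposite directions over these 2 days.

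In linc-Brn1b-/- telencephalon 0 of the 4 genes were called over the same interval, beside 13.3% of all genes higher and 11.2% lower. Pou3f1 was 1.31-fold higher and Pou3f4 at 76.6%, close to their wild-type courses. Pou3f3, at 36.5 FPKM at E13.5 and 29.2 FPKM at E15.5, was at 79.9%, and Pou3f2, at 30.6 and 29.9 FPKM, was at 97.8%. The genotype difference in the log2 course was −0.46 for Pou3f2, −0.34 for Pou3f3, −0.05 for Pou3f4 and 0.05 for Pou3f1, knockout minus wild type. Since the sex of the pools also changed between these ages, oppositely by genotype, these differences cannot be told apart from it.

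Between E15.5 telencephalon and P7 brain, age and dissected tissue changed together and cannot be told apart. Wild-type FPKM of 3 of the 4 genes was lower at P7, to 20.0% for Pou3f2, 24.2% for Pou3f4 and 27.5% for Pou3f3, whereas Pou3f1 stayed at 81.5%. By the same rule 30.4% of all genes were lower and 27.6% higher, and 1.98%, 3.11% and 3.92% of genes were at least as far down as Pou3f2, Pou3f4 and Pou3f3. In linc-Brn1b-/- animals the same 3 genes were lower, to 25.7% for Pou3f2, 25.6% for Pou3f4 and 19.9% for Pou3f3, with Pou3f1 at 98.9%, beside 30.5% of all genes lower and 28.4% higher. The 3 telencephalon markers, summed, were at 134.9 FPKM in E15.5 telencephalon and 31.1 FPKM in P7 brain of wild type, a fall of the same order as that of the 3 genes, and their part in it was not tested.

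The next comparison asks what became of Pou3f3 and its paralogs when the neighbouring lincRNA was removed. At E13.5 Pou3f3 was at 81.5 FPKM in wild-type and 36.5 FPKM in linc-Brn1b-/- telencephalon, or 44.8% (log2 −1.16). At E15.5 it was at 82.5 and 29.2 FPKM, or 35.4% (log2 −1.50). At P7 it was at 22.7 and 5.81 FPKM, or 25.6% (log2 −1.95). The knockout level was thus below the wild-type level at every age and was the smallest share of wild type at P7. The P7 samples were whole brain, so age and tissue cannot be told apart in that order. Whether fewer cells carried Pou3f3 RNA or each carried less cannot be told apart in bulk tissue.

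Read against all genes, the lower Pou3f3 called at each age stood far out. By the 1.5-fold rule 7.10% of 13822 genes were lower and 3.70% higher at E13.5, 0.578% of 13657 lower and 0.381% higher at E15.5, and 4.58% of 14521 lower and 3.78% higher at P7. Genes at least as far down as Pou3f3, itself included, numbered 207 (1.498%), 30 (0.220%) and 41 (0.282%) at these ages. The central 90% of log2 ratios ran from −0.71 to 0.53 at E13.5, from −0.17 to 0.16 at E15.5 and from −0.56 to 0.53 at P7, so a given ratio weighs differently by age.

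**Figure D2:**
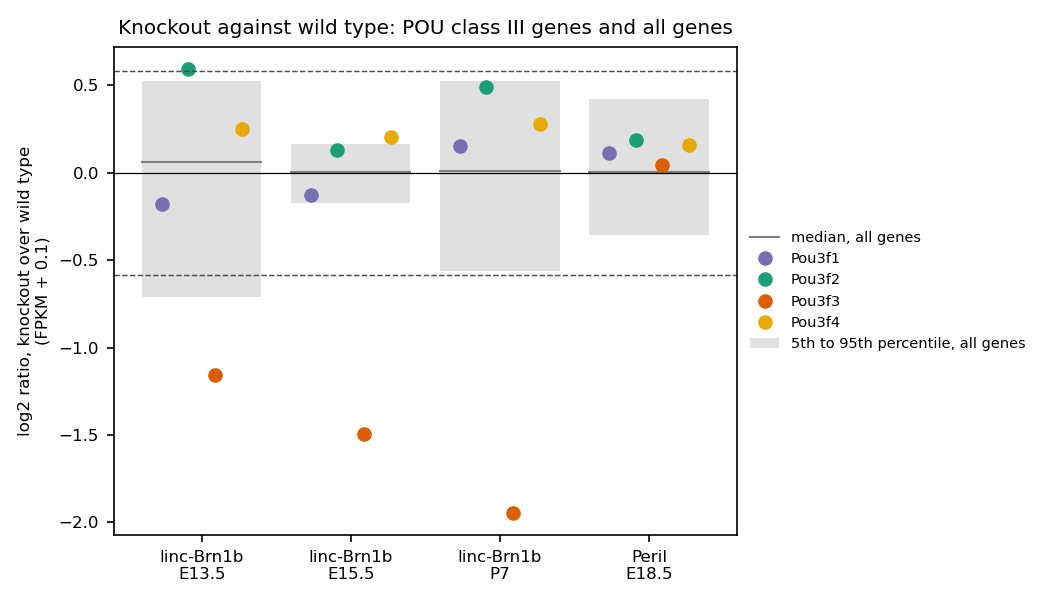
Log2 ratio of FPKM + 0.1, knockout over wild type, of the 4 genes (points) in 4 comparisons, with the 5th to 95th percentile (grey bar) and median (grey line) of all genes and dashed lines at 1.5-fold. Pou3f3 lay outside the bar at the 3 linc-Brn1b ages (−1.16, −1.50 and −1.95) and was at 0.04 in the Peril strain.

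Pou3f2, the closest functional partner of Pou3f3 in cortex, was higher in the knockout at all 3 ages by unequal amounts. At E13.5 it measured 20.2 FPKM in wild-type and 30.6 in knockout telencephalon (1.51-fold, log2 0.59), against 27.4 and 29.9 FPKM at E15.5 (1.09-fold, log2 0.13), and 5.46 and 7.71 FPKM at P7 (1.41-fold, log2 0.49). Of these only the E13.5 value was called, and it lay at the edge of the rule: it was no longer called with a pseudocount of 1 FPKM (log2 0.57) or after centring on the median gene (log2 0.53). Genes at least as far up as Pou3f2 made up 3.53%, 7.53% and 6.07% of all genes at the 3 ages.

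Pou3f4, the X-linked member, was higher in the knockout by a near constant factor. Wild-type and knockout levels were 17.1 and 20.3 FPKM at E13.5 (1.19-fold), 13.497 and 15.6 FPKM at E15.5 (1.15-fold) and 3.26 and 3.99 FPKM at P7 (1.22-fold). None was called. The log2 value at E15.5, 0.21, was above the 95th percentile of all genes at that age (0.16), and those at E13.5 and P7, 0.25 and 0.28, were within the central 90%. Among X-linked genes with at least 1 FPKM, 136 of 490, 10 of 471 and 70 of 507 were at least as far up as Pou3f4, beside X-linked medians of 0.10, 0.01 and −0.03. linc-Pou3f4-AS, which occupies the same deposited locus, was at 4.05 and 4.92 FPKM at E13.5, 3.47 and 3.88 FPKM at E15.5 and 0.919 and 0.940 FPKM at P7. No source used here states that strand was kept, so reads of this pair may not be separable.

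Pou3f1 differed least. At E13.5 it measured 7.90 FPKM in wild-type and 6.97 in knockout telencephalon (88.2%), against 9.93 and 9.11 FPKM at E15.5 (91.7%), and 8.09 and 9.01 FPKM at P7 (111.4%). No age was called, and the direction at P7 was opposite to that of the embryonic ages.

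The summed FPKM of the 4 genes stayed below wild type at every age. It went from 126.7 FPKM in wild-type to 94.4 in knockout telencephalon at E13.5 (74.5%), from 133.3 to 83.8 FPKM at E15.5 (62.9%), and from 39.5 to 26.5 FPKM at P7 (67.2%). Pou3f3 was lower by 45.0, 53.4 and 16.9 FPKM, and the other 3 genes together were higher by 12.7, 3.83 and 3.89 FPKM. As a share of the Pou3f3 difference their gain was 28.2%, 7.19% and 23.1%. Pou3f2 supplied most of it, with 10.3, 2.57 and 2.25 FPKM. In FPKM, the paralogs together therefore made up less than the Pou3f3 difference in all 3 comparisons. These sums and shares add FPKM that rest on unlike parts of the transcripts, so they depend on the deposited models. Whether the gains of the paralogs exceed the spread between animals was not tested.

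**Figure D3:**
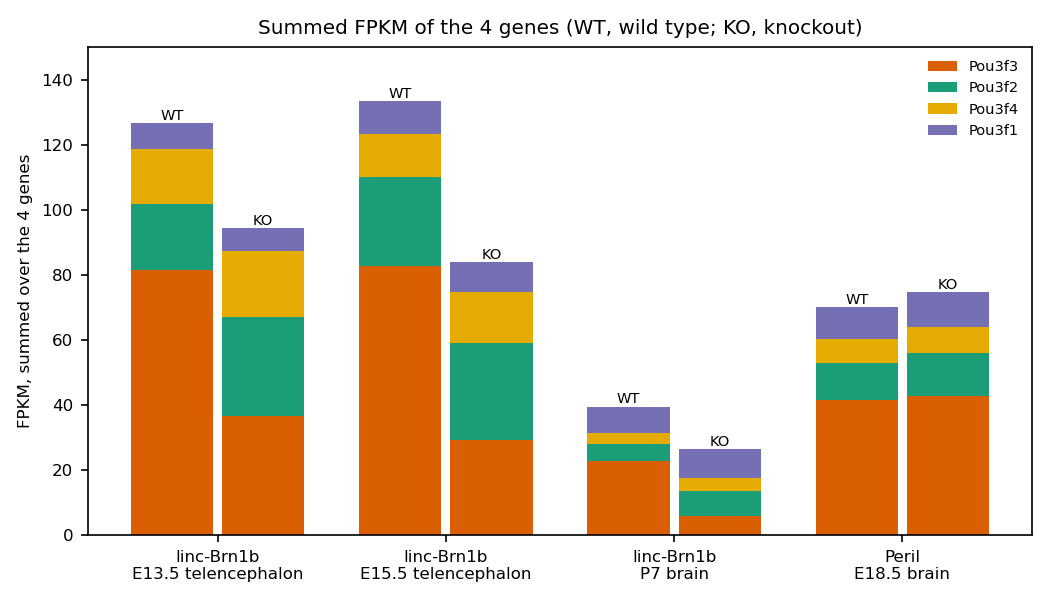
FPKM of the 4 genes stacked in each brain group (WT, wild type and KO, knockout). The stack was lower in knockout at the 3 linc-Brn1b ages (94.4 against 126.7 FPKM at E13.5) and 74.7 against 70.1 FPKM in the Peril strain.

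The composition of the family differed between genotypes as well. Pou3f3 made up 64.3% of the summed FPKM in wild type and 38.7% in knockout at E13.5, 61.9% and 34.8% at E15.5, and 57.4% and 21.9% at P7. The Pou3f2 share went from 16.0% to 32.4%, from 20.5% to 35.7% and from 13.8% to 29.1%. In knockout E15.5 telencephalon Pou3f2 at 29.9 FPKM was level with Pou3f3 at 29.2 FPKM, and in knockout P7 brain the order was Pou3f1 at 9.01, Pou3f2 at 7.71, Pou3f3 at 5.81 and Pou3f4 at 3.99 FPKM. The ratio of Pou3f3 to Pou3f2 was 4.03 in wild type and 1.19 in knockout at E13.5, 3.02 and 0.975 at E15.5, and 4.15 and 0.754 at P7.

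At the Brn1 locus itself, Pou3f3 moved with one noncoding neighbour and against another. 2900092D14Rik, which begins 126 bp past the end of Pou3f3, was at 25.2 and 10.6 FPKM at E13.5, 24.3 and 8.65 FPKM at E15.5 and 10.5 and 2.72 FPKM at P7, or 42.1%, 35.6% and 26.0% of wild type beside 44.8%, 35.4% and 25.6% for Pou3f3. With so short a gap, the deposited entries may divide reads of 1 transcript. 2610017I09Rik, which ends 2320 bp before the deposited start of Pou3f3, was higher in knockout. It was at 165 and 245 FPKM at E13.5, which at 1.49-fold was not called. At E15.5 it was at 191 and 689 FPKM (3.62-fold) and at P7 at 79.7 and 453 FPKM (5.68-fold). AK011913, which shares the linc-Brn1b interval, measured 8.71, 8.73 and 1.06 FPKM in the wild-type groups and did not exceed 0.0267 in any knockout group.

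**Figure D4:**
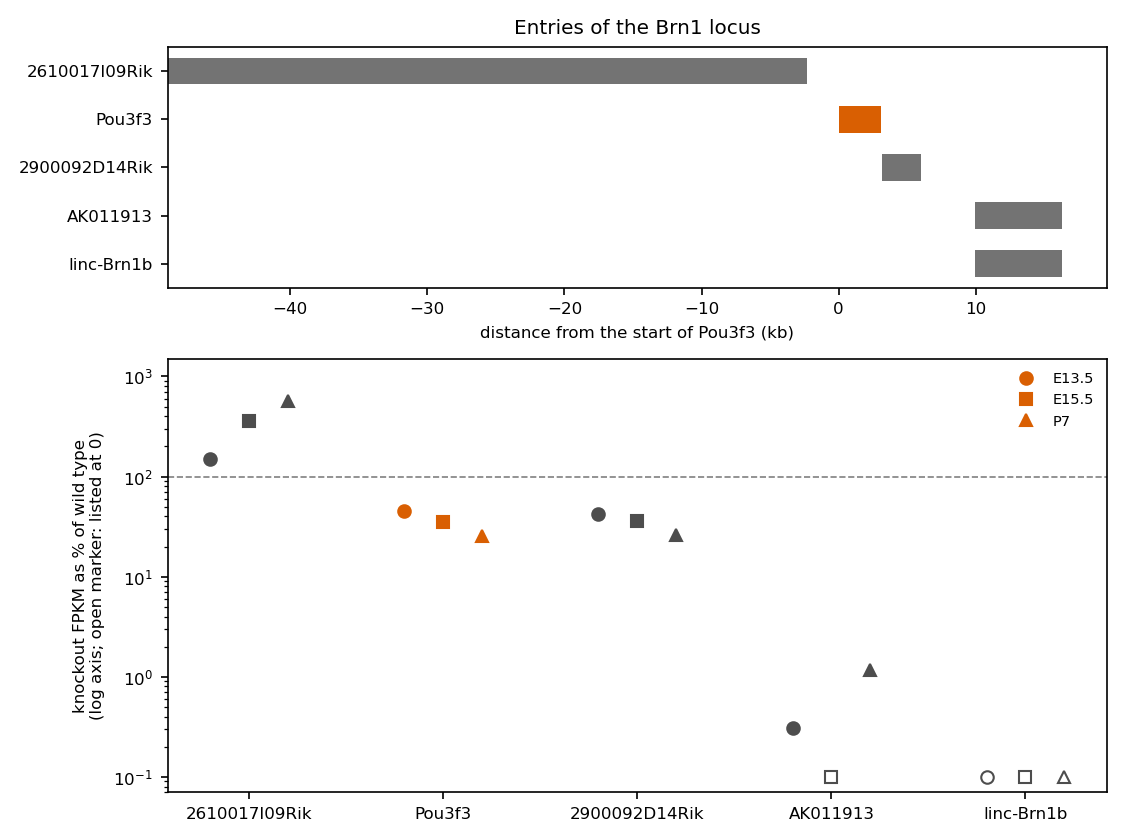
Above, the deposited entries of the Brn1 locus by distance in kb from the start of Pou3f3 (orange). Below, knockout FPKM as a percentage of wild type on a log axis at E13.5 (circles), E15.5 (squares) and P7 (triangles), open markers at the foot of the axis for entries listed at 0; Pou3f3 and 2900092D14Rik ran together (44.8% and 42.1% at E13.5) while 2610017I09Rik was above 100%.

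In the brain of another lincRNA knockout, Pou3f3 did not differ by the 1.5-fold rule. In E18.5 brain of the Peril strain its wild-type level was 41.4 FPKM, and that of the libraries labelled knockout was 42.7 (log2 0.04). The 2 strains differ in age and table and were not tested against each other. Pou3f2 was at 11.5 and 13.2 FPKM (1.14-fold), Pou3f1 at 9.80 and 10.6 FPKM (1.08-fold) and Pou3f4 at 7.40 and 8.26 FPKM (1.12-fold). Of the 4 genes 0 were called, beside 2.46% of 14729 genes higher and 1.83% lower. All 4 genes were slightly higher in libraries labelled knockout, Pou3f2 and Pou3f4 by log2 0.19 and 0.16. Of all genes, 16.1% and 19.8% were at least as far up as these, and the differences were not tested. In this strain's deposited models Pou3f3 shares 1 interval with linc-Pou3f3-AS (29.2 and 35.9 FPKM), 2610017I09Rik (75.3 and 74.35 FPKM) and 2900092D14Rik (10.9 and 12.7 FPKM). Pou3f1 shares its interval with linc-Pou3f1-AS (2.25 and 3.16 FPKM) and Pou3f2 with linc-Pou3f2-AS (1.61 and 1.88 FPKM). How reads were divided within these intervals was not tested.

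In E14.5 lung the family was near absent. Pou3f3, the highest member, was at 0.430 FPKM in wild-type lung against 0.187 in Fendrr-/- lung. Pou3f1 was at 0.0411 and 0.147, Pou3f4 at 0.0600 and 0.0184 and Pou3f2 at 0.0235 and 0.0144 FPKM. All were under 1 FPKM in both groups, and no fold is given.

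Markers of other cells and regions moved with genotype in the same comparisons, in particular at P7, and their part in the Pou3f values was not tested. The 3 telencephalon markers, summed, were at 225.7 and 220.6 FPKM at E13.5, 134.9 and 142.3 FPKM at E15.5 and 31.1 and 37.9 FPKM at P7, wild type then knockout. As a share of wild type these sums were 97.7%, 105.5% and 121.9%, and their bearing on Pou3f3 was not tested. At P7 the 5 midbrain and hindbrain markers summed to 5.55 and 1.37 FPKM, with En2 at 1.87 and 0.577 and Hoxb3 at 1.54 and 0.0221. The 5 cerebellum markers summed to 120 and 68.8 FPKM and the 6 hypothalamus markers to 8.62 and 19.2 FPKM at P7. All 5 cerebellum and all 5 midbrain and hindbrain markers were lower in knockout, whereas the hypothalamus gain lay mostly in Avp and Oxt, and Otp was lower at 0.935 and 0.528 FPKM. In telencephalon all 5 midbrain and hindbrain markers were near or at 0, with sums of at most 0.0300 FPKM in all 4 groups. At E15.5 the 4 choroid plexus markers summed to 241 FPKM in wild-type but 5.26 in knockout telencephalon, with Ttr at 231 and 1.39. Of the 2 erythroid markers measured, Hbb-b1 was lower in knockout at E13.5, at 106.2 and 34.8 FPKM, and Alas2 was at 5.64 and 6.41 FPKM. The 4 microglia markers were all lower there and summed to 12.9 and 8.83 FPKM.

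Members of the neuron, radial glia and oligodendrocyte lists differed in direction in at least 1 comparison each. Of the 4 neuron markers, Tubb3 was lower in knockout at E13.5, at 869 and 678 FPKM, while Stmn2 (224 and 254), Syt1 (30.3 and 37.9) and Snap25 (25.2 and 32.2) were higher. Their sum was 1149 and 1002 FPKM at E13.5, 1737 and 1747 FPKM at E15.5 and 2608 and 2546 FPKM at P7. The 4 radial glia markers, cells in which Pou3f3 and Pou3f2 are expressed, summed to 647 and 475 FPKM, 766 and 855 FPKM and 1093 and 660 FPKM by age. Fabp7 made up most of these sums, and at E13.5 it and Hes5 were lower while Pax6 (51.5 and 58.4 FPKM) and Slc1a3 (32.3 and 35.1 FPKM) were higher. At E15.5 all 4 were higher in knockout, and their bearing on Pou3f3 was not tested. At P7 the 4 oligodendrocyte lineage genes summed to 347 and 217 FPKM, and Mbp, a myelin gene, accounted for nearly all of that difference at 292 and 161 FPKM. Olig2 was higher, at 11.2 and 16.1 FPKM, and Sox10 was at 11.8 and 11.6 FPKM. The 4 astrocyte markers were all lower at P7 and summed to 244 and 166 FPKM. Of the 2 Schwann cell genes, Sox10 and Egr2, the sum was 12.6 and 12.9 FPKM. Of the 5 lung markers 2 were above 1 FPKM in each brain group, with Nkx2-1 and Sox9 also being genes of brain.

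For lists of related genes, the calls below are set beside the share of all genes called by the same rule, which was 7.10% lower and 3.70% higher at E13.5, 0.578% and 0.381% at E15.5, 4.58% and 3.78% at P7, and 1.83% and 2.46% in the Peril strain. At these shares, 0 or 1 call among 3 to 12 genes is too few to be a result about a list. Lists with more calls lay above these shares, by an excess that was not tested. In the target list some of these calls depend on the 1 FPKM minimum, so its excess is not a result about that list. Of 10 other POU genes, the 3 with at least 1 FPKM at E13.5 and at E15.5 and the 4 at P7 included 0 called genes, with median log2 ratios of −0.13, −0.06 and −0.14 beside 0.06, 0.01 and 0.01 for all genes. Pou6f1, the most abundant of them, was at 29.9 and 27.3 FPKM at E13.5, 38.4 and 35.97 FPKM at E15.5 and 22.8 and 17.9 FPKM at P7. In the Peril strain 0 of 6 were called (median 0.10 beside 0.00).

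SOX and bHLH factors act with class III POU proteins on neural enhancers and in neuronal specification. Of those with at least 1 FPKM in either group, 0 of 8 were called at E13.5 and 0 of 9 at E15.5. At P7 1 of 8 was called (beside 4.58% of all genes lower), namely Sox11, lower at 14.7 and 9.67 FPKM. Sox2, the best known partner, was at 100.4 and 92.6 FPKM, 50.8 and 52.5 FPKM and 22.3 and 17.4 FPKM, wild type then knockout, by age. The medians of the list were 0.02, −0.03 and −0.34, and in the Peril strain 0 of 9 were called (median −0.02).

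Genes described as targets of class III POU proteins were mixed. At E13.5, 8 had at least 1 FPKM in either group, with a list median of −0.12. Of these, Gnrh1 was called higher at 0.699 and 1.40 FPKM and Pmp22 lower at 3.84 and 2.498 FPKM. At E15.5 0 of 8 were called (median −0.03). At P7, of 12, the hormone genes Avp (2.98 and 11.1 FPKM) and Oxt (1.795 and 4.29 FPKM) and the Schwann cell factor Egr2 (0.759 and 1.30 FPKM) were called higher. Fabp7, a radial glia gene, was called lower at 919 and 508 FPKM (list median 0.09). Avp and Oxt are also in the hypothalamus marker list above and Fabp7 in the radial glia list, so these are the same values. The P7 samples were whole brain, and the part of regions or cell types in these calls was not tested. Nes, whose neural enhancer binds POU proteins, was at 132 and 123 FPKM at E13.5 and 55.2 and 54.1 FPKM at E15.5 and was not called. In the Peril strain 1 of 9 was called, lower (Gnrh1, 1.02 and 0.454 FPKM). Gnrh1 and Egr2 reached 1 FPKM only in the group where each was higher, so their calls depend on that minimum and rest on low values.

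Pou3f2 and Pou3f3 act in the cortical lineage, and genes of its layers and progenitors were counted in the same way. Of the upper-layer list 1 of 7 was higher at E13.5 (Unc5d, 4.41 and 7.004 FPKM), and 0 of 8 were called at E15.5 and at P7 (medians 0.05, −0.08 and 0.18). Of the deep-layer list 0 of 8 were called at each age (medians 0.28, 0.03 and 0.10). Of the intermediate progenitor list 0 of 7 were called in either embryonic comparison and 2 of 5 were lower at P7 (medians 0.12, 0.04 and −0.20). These were Neurod1 at 25.0 and 8.37 FPKM and Insm1 at 5.45 and 1.38 FPKM. Eomes (3.74 and 3.24), Btg2 (2.90 and 3.56) and Elavl4 (39.9 and 40.1 FPKM) were not called. The P7 samples were whole brain, where cerebellum and hindbrain markers were also lower in knockout, and the part of these regions in the Neurod1 and Insm1 values was not tested. In the Peril strain 0 genes of these 3 lists were called. Of 5 X-linked neural genes compared for Pou3f4, 0 were called at the 3 linc-Brn1b ages or in the Peril strain (medians 0.10, 0.02, −0.31 and 0.01).

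Over the 6 linc-Brn1b groups, the members themselves fell into unlike patterns. Pearson correlations of log2(FPKM + 0.1) describe this over 6 pooled groups that share a table and its scaling, with no test. They were 0.97 between Pou3f2 and Pou3f4, 0.71 between Pou3f3 and Pou3f4, 0.64 between Pou3f2 and Pou3f3, and −0.01, −0.06 and −0.20 between Pou3f1 and Pou3f2, Pou3f3 and Pou3f4. The 3 genes most like each member among 13510 others were Rab40c (0.965), Jtb (0.961) and Ecsit (0.961) for Pou3f1, and Tcf20 (0.999), Top3b (0.999) and AK051928 (0.998) for Pou3f2. For Pou3f3 they were Ggta1 (0.967), Ubfd1 (0.964) and AK144330 (0.962), and for Pou3f4 Wdfy2 (0.9996), Prpf6 (0.999) and Hnrnpul2 (0.999). Many genes are low at P7, so high values are common for Pou3f2 and Pou3f4.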

How the data were processed

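RNA-seq (TruSeq libraries from total RNA, paired-end reads) was aligned by the authors to mm9 with Tophat2, assembled with Cufflinks (2.0.2 per the labels) and compared with Cuffdiff2. The authors deposited FPKM values normalized by Cuffdiff2, 1 value per group, in 3 separately normalized tables with 0 columns of values per library, so depth, spread and precision are unknown. Their fold changes, test statistics, p-values and q-values were not used. In the linc-Brn1b table all 6 groups had the same values in all 15 pairs.

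Log2 ratios of FPKM + 0.1 were formed within a table with pandas 2.3.3 and numpy 2.4.6 (Python 3.11.15), in 8 comparisons. Genes with at least 1 FPKM in either group were considered and called at 1.5-fold, without a test. How the rule was applied was checked on simulated data, and whether the calls exceed the spread between animals was not tested. Figures were drawn with matplotlib 3.10.9. Alternatives were a pseudocount of 1 or none, a minimum of 5 FPKM or none, 2-fold, centring on the median, and other sums.

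Named genes are the 4 members in every group, genes of 8 lists (at most 4 with values per list, the highest by FPKM), Brn1 locus transcripts, and the 3 genes most correlated with each member among genes with a symbol. linc-Pou3f4-AS, linc-Pou3f3-AS, linc-Pou3f1-AS, linc-Pou3f2-AS, the strain checks and called or marker genes outside the 4 highest were named after their values were seen. There were 13 lists of cell type markers. Some genes of these lists are not reported here and were left out of their counts, medians and sums. Members and lists were chosen with earlier results of these data known. Sequences and gene models came from GENCODE on NCBIM37 and RefSeq (GRCm38.p6). Starts in the tables count from 0, and 1 was added.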

Additional observations from a re-analysis of the deposited data

Results flagged for a closer look

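Between the embryonic ages, telencephalon of both genotypes ran in opposite directions for 2 members. The log2 ratio of E15.5 over E13.5 for Pou3f2 was 0.433 in wild type and −0.0314 in knockout, and for Pou3f3 it was 0.0185 in wild type and −0.322 in knockout. Both wild-type and knockout ratios of each gene were within 1.5-fold, and 1 of each pair was near 0. The sex of the pools changed between these ages, in opposite directions by genotype, and cannot be told apart from age.

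For Pou3f1 the knockout to wild-type log2 ratio was −0.18 at E13.5 and −0.12 at E15.5 and 0.15 at P7, where whole brain rather than telencephalon was sampled. None of these differences between genotypes or ages was tested, since each group is 1 pooled value.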

How the results depend on the processing

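Of 96 alternative values of the members' log2 ratios, 94 kept their side of the 1.5-fold rule. The exceptions were Pou3f2 at E13.5 with a pseudocount of 1 FPKM (0.57) and after centring (0.53), against 0.59. Pou3f3 stayed called, and lower, under all alternatives at the 3 linc-Brn1b ages. For the summed FPKM, 18 of 24 alternative values kept their side and also lay less than 1.5-fold from the main value. The sum of Pou3f2 and Pou3f3 alone was past 1.5-fold at E13.5 (−0.60) and P7 (−1.05), and that of all 4 genes was past it at P7 after centring (−0.59). Without Pou3f3 the sum turned upward, to 0.36, 0.10 and 0.30 for the 3 ages in turn, since the gene that was lower had been left out.

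Counts of all genes called moved more than those of the members. Knockout against wild type, the counts for E13.5, E15.5, P7 and the Peril strain were 1494, 131, 1214 and 632, and became 2973, 783, 2923 and 2759 with no minimum, 865, 45, 501 and 175 with at least 5 FPKM, and 438, 72, 333 and 223 at 2-fold. With a pseudocount of 1 FPKM they became 77 at E15.5, 665 at P7 and 291 in the Peril strain. From E13.5 to E15.5 the counts, 3297 in wild type and 3413 in knockout, became 5419 and 5503 with no minimum, 1888 and 2190 with at least 5 FPKM, and 1186 and 1167 at 2-fold. From E15.5 to P7 the counts, 8642 in wild type and 8741 in knockout, became 13409 and 13392 with no minimum and 5369 and 5558 at 2-fold. Ratios and counts for lung were not run, since all 4 genes were under 1 FPKM there. No paired analysis was possible because the files hold 1 pooled value per group, and leaving out each replicate was not possible for the same reason. Without depth or spread, the modest gains of Pou3f2 and Pou3f4 could be neither separated from nor equated with animal-to-animal differences.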
